A study of Mus musculus with 13 samples.

Results

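A set of 8 mouse germline genes was examined for 2 repressive histone marks in embryonic stem cells. Expression of the genes was not examined here. The genes were Dazl, Mael, Ddx4, Sycp3, Tex101, Stk31, Slc25a31 and Asz1. Each gene was represented by 1 fixed window on mouse build mm9, between 50 and 120 kb wide, and every peak that overlapped a window by at least 1 bp was taken. The 8 windows held 87 of the 185431 peaks in the 8 deposited lists. The cells were J1 mouse embryonic stem cells, a line grown from the inner cell mass of the blastocyst, that carry an inducible knockout of Setdb1. H3K9me3 was profiled without tamoxifen in 4 libraries, and H3K27me3 without tamoxifen in 2 libraries and with 2.5 µM tamoxifen, which induces the ablation of Setdb1, in 2. Cells without tamoxifen are called untreated. The treatment protocol names DMSO as the solvent control, and all groups carry the inducible allele. The labels do not say whether the line is 1 clone, whether libraries came from separate cultures, or how long tamoxifen was given, so p-values measure only the spread between these libraries, which may be technical. H3K9me3 with tamoxifen and the 5 inputs were not analysed here, so the loss of Setdb1 was not checked.

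Germline genes are switched off in embryonic stem cells and in most other cells of the body, and are expressed in germ cells, where they serve meiosis, the control of transposons by small RNAs and the formation of sperm and eggs. Their silencing outside the germline is known to involve DNA methylation of their CpG-rich promoters, the variant Polycomb complex that contains E2F6 and the E-box binding factors MGA and MAX, and, at some of them, the H3K9 methyltransferase Setdb1. Of the marks studied here, Setdb1 writes H3K9me3, and H3K27me3 is written by the Polycomb methyltransferases Ezh1 and Ezh2.

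Promoters of 4 of the genes are shown first because 2 of the letter patterns tied to that Polycomb complex can be read in them. The sequences are RefSeq promoters on build GRCm38.p6, 250 bases before the annotated start, 5′ to 3′ on the strand of the gene. Capitals mark CACGTG, the E-box, and TCCCGC, an E2F-type pattern, which was searched on both strands and so also appears as GCGGGA. Dazl, Mael and Ddx4 were chosen for print because both marks shared bases in their windows in at least 1 H3K27me3 list and in 2 or more H3K9me3 lists, and Sycp3 because its window held no peak.
Dazl (chr17:50293621-50293870, minus strand): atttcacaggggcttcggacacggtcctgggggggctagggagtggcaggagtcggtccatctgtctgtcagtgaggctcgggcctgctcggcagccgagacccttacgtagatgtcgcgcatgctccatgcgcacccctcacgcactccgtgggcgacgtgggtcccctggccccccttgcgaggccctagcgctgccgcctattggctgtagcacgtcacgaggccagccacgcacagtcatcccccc
Mael (chr1:166238745-166238994, minus strand): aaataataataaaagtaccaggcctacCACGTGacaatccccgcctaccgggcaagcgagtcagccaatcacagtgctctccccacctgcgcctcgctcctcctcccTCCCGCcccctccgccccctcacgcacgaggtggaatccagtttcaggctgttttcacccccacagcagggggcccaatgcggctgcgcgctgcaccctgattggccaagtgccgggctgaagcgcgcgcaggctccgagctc
Ddx4 (chr13:112652311-112652560, minus strand): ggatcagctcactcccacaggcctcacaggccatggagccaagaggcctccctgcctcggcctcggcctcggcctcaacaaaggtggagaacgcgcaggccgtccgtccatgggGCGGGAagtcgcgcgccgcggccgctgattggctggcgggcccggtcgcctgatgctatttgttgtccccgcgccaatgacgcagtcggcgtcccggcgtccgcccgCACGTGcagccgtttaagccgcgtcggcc
Sycp3 (chr10:88459337-88459586, plus strand): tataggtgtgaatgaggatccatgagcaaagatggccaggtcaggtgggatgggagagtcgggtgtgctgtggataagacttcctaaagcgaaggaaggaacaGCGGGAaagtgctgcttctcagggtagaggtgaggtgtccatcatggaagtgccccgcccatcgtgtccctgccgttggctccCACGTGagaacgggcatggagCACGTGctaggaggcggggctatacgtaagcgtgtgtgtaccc

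All 8 genes matched the promoter table. CACGTG was present in 5 of the 8 promoters, those of Mael, Ddx4, Sycp3, Stk31 and Slc25a31. It was present in 6.86% of the promoters of all 27025 genes in the table and in 7.61% of those of the 17492 protein-coding genes. In a list of 40 further germline genes, 34 had a promoter and 11 of them held the E-box. In Sycp3 CACGTG occurred at 2 places, starting 64 and 43 bases before the start of the gene, and in Ddx4 it began 29 bases before it. TCCCGC was present in 3 of the 8 promoters, those of Mael, Ddx4 and Sycp3, against 24.2% of protein-coding genes, and these 3 held both patterns, as did 2.68% of protein-coding genes. Of the 34 further germline promoters, 10 held TCCCGC, which is 29.4%, and 1 held both patterns, which is 2.94%, so that this list stood near the protein-coding genes for both counts. The promoters of Dazl, Tex101 and Asz1 held neither. The 8 promoters had a median of 18 CG dinucleotides, the further germline genes 14 and protein-coding genes 11. A match describes these letters in this window and is not evidence of binding. Of the 5 genes with CACGTG, Mael, Ddx4, Stk31 and Slc25a31 had a H3K27me3 region of both untreated libraries in their windows. The window of Sycp3, the other gene with CACGTG, had no peak. Of the genes without it, Asz1 had such a region, and Dazl and Tex101 did not. A link between pattern and mark was not tested.

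No annotation of build mm9 was used here, so peaks are placed within the windows but not relative to the start or the exons of a gene. A window can also hold parts of the neighbouring genes. In the order of the gene table these are Rftn1 and Plcl2 for Dazl, Gpa33 and Ildr2 for Mael, and Il31ra and Slc38a9 for Ddx4. They are Gnptab and Chpt1 for Sycp3, Lypd3 and Gm1096 for Tex101, and Fam221a and Npy for Stk31. For Slc25a31 they are Intu and Hspa4l, and for Asz1 Wnt2 and Cftr. Which of them reach into a window was not determined. Peaks in the lists have a position and no height, and the depth of the libraries is unknown. The lists held 18037 to 42725 peaks for H3K9me3 and 7041 to 22265 for H3K27me3. A longer list can place a peak in more windows. H3K9me3 replicate 4 has no antibody named in its labels and was kept by its title. Libraries whose processing notes name MACS2 2.0.10 (replicate 1 of each group) and those that name MACS2 2.1.0 (all others) are called by the version. To read each count against the genome, chromosomes 1 to 19 and X were divided into 34371 tiles of 75 kb, the median width of the windows. The tiles include gene-poor stretches and are not matched to genes.

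**Figure D1:**
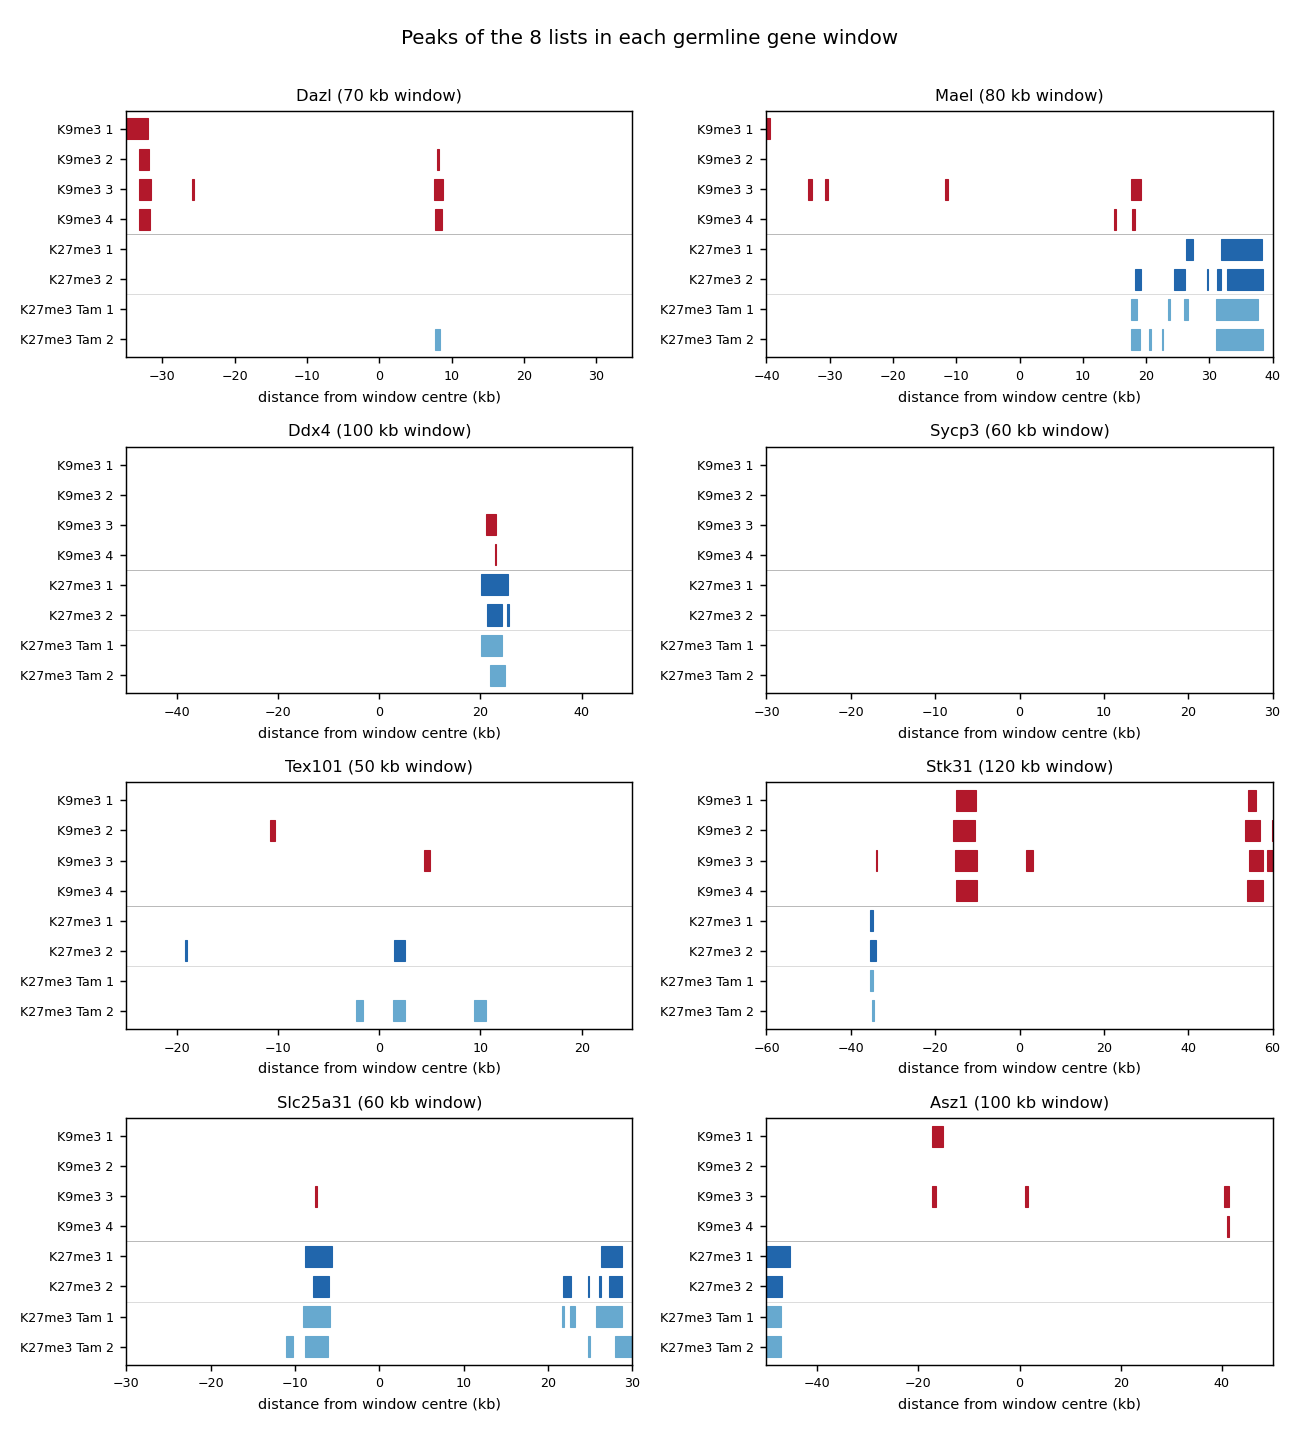
Peaks of the 4 H3K9me3 lists (red), the 2 untreated H3K27me3 lists (dark blue) and the 2 tamoxifen H3K27me3 lists (light blue) in each of the 8 gene windows, by distance from the centre of the window in kb; peaks are cut at the window edges. The Stk31 window has H3K9me3 peaks of all 4 lists in its interior, Mael, Ddx4, Stk31, Slc25a31 and Asz1 have H3K27me3 in all 4 of its lists, and the Sycp3 window is empty.

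A H3K9me3 region held by all 4 libraries overlapped 3 of the 8 windows, those of Stk31, Dazl and Mael, against 24.4% of genome tiles. At the width of each of the 3 windows the share of tiles was 33.9% for Stk31, 23.3% for Dazl and 25.7% for Mael. The count lies near this background and is not a result about these genes. The 3 windows were not alike. In Stk31 these regions lay inside the window, in Dazl the region crossed one edge, and in Mael only 1 of the 4 libraries reached past the edge. The region was counted where touching or overlapping peaks of the 4 lists were merged and every list had at least 1 bp in the merged stretch. With windows shortened by 10 kb at each end, Stk31 alone met this rule.

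Stk31, which encodes a testis-enriched protein with a kinase and a Tudor domain, had the most H3K9me3 of the 8 windows. Its first region, on chromosome 6 from 49364170 to 49369895, was a single peak in each list, 4777, 5172, 5139 and 4869 bp wide in replicates 1 to 4. The 4 lists shared 4388 bp of it, and their borders differed by at most 784 bp on the left and 554 bp on the right. Of the 4 regions held by all 4 libraries it had the most bases common to the lists, and its merged width of 5726 bp exceeded that of 71.8% of the 10815 regions that all 4 libraries held across the genome. The second region, from 49433503 to 49437829, had peaks of 2038, 3552, 3464 and 3690 bp, with 1738 bp common to all 4 lists. A further region, from 49438780 to 49442019, was absent from replicate 1 and crossed the end of the window. The covered share of the window was 5.68% in replicate 1, 7.38% in replicate 2, 9.81% in replicate 3 and 7.13% in replicate 4, a mean of 7.50% ± 1.72 (SD, n = 4). All 4 libraries were thus high in this window, and replicate 3, the longest list, was the highest.

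Dazl, an RNA-binding protein that germ cells need for the translation of their transcripts, had 3 H3K9me3 regions, 1 wide and 2 narrow. The wide one, from 50386921 to 50393405 on chromosome 17, was 6485 bp across and was held by all 4 libraries, and 2427 bp of it were common to all. It crossed the edge of the window, and the peaks that reached inside were 6023, 1366, 1687 and 1492 bp wide in replicates 1 to 4. A narrow region from 50399084 to 50399440 was a peak of 357 bp in replicate 3 alone. The other narrow one, from 50432506 to 50433780, lay 8.1 kb from the centre of the window. It was a peak of 355 bp in replicate 2, of 1275 bp in replicate 3 and of 966 bp in replicate 4, and replicate 1 had none there. The 3 peaks were nested, with 355 bp common to them. The covered share of the Dazl window was 4.39%, 2.46%, 4.74% and 3.51% in replicates 1 to 4 (mean 3.78% ± 1.02, SD, n = 4). All 4 libraries covered part of it. In replicates 2, 4 and 3, which share a MACS2 version, the share rose with list length (29410, 33743 and 42725 peaks). Replicate 1, the shortest list with 18037 peaks and of the other version, was second highest. Its value came from the single peak of 6023 bp, of which 3072 bp lay in the window. Its peaks had a median width of 1896 bp over the genome, against 806 to 830 bp in replicates 2 to 4. The part of list length in these values was not tested.

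Mael and Asz1, which act in the piRNA pathway that silences transposons in germ cells, and Ddx4, the Vasa RNA helicase of germ granules, had H3K9me3 in fewer lists. In the Mael window the covered share was 0.682%, 0%, 3.92% and 1.13% in replicates 1 to 4. Its site from 168167627 to 168169281 on chromosome 1 was a peak of 1655 bp in replicate 3 and of 603 bp in replicate 4, and absent from replicates 1 and 2. In the Ddx4 window the single site, from 113441149 to 113443149 on chromosome 13, was a peak of 2001 bp in replicate 3 and of 360 bp in replicate 4, again with nothing in replicates 1 and 2. Asz1 had a site from 18012706 to 18014869 on chromosome 6 in replicates 1 and 3, at 2164 and 857 bp, and another from 18070382 to 18071375 in replicates 3 and 4, at 959 and 387 bp. None of these 4 sites in the interior of the Mael, Ddx4 and Asz1 windows was found in more than 2 lists.

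Tex101, a cell-surface protein of germ cells and sperm, had 1 peak of 554 bp in replicate 2 and 1 of 549 bp in replicate 3, at different places. Slc25a31, the ADP/ATP carrier of germ cell mitochondria, had a single peak of 207 bp in replicate 3. Sycp3, a component of the axis of meiotic chromosomes, had no H3K9me3 peak in any list. A peak in at least 1 H3K9me3 list was present in 7 of the 8 windows and 65.8% of tiles, and peaks in at least 2 lists in 6 windows and 51.5% of tiles. A merged region held by at least 2 lists was present in 5 windows and 48.2% of tiles. Replicate 3 alone reached all 7 of these, where it reached 56.9% of tiles. Replicates 1, 2 and 4 had a peak in 4, 3 and 5 windows, against 35.5%, 44.0% and 48.6% of tiles.

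The 4 H3K9me3 lists gave 21 merged regions in the windows. Of these, 11 were found in 1 list, 4 in 2 lists, 2 in 3 lists and 4 in all 4. The single-list share was 52.4% in the windows and 45.0% over the 52168 merged regions of the genome. Of the 11 single-list regions in the windows, 9 belonged to replicate 3, 1 to replicate 2 (Tex101) and 1 to replicate 4 (Mael). Single-list regions had a median width of 512 bp in the windows and 445 bp over the genome, and regions of all 4 lists of 5986.5 and 3351 bp. Merging over more lists widens a region by construction.

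A H3K27me3 region held by both untreated libraries was found in 5 of the 8 windows, those of Mael, Ddx4, Stk31, Slc25a31 and Asz1, against 12.8% of tiles. The same 5 windows met the rule with both tamoxifen libraries, against 15.2% of tiles. Stk31 and Mael met the rule for both marks in untreated cells, against 2.31% of tiles. For Mael the H3K9me3 part rested on the region that crossed the edge, with 546 bp in the window, all from replicate 1. Mael no longer met the H3K9me3 rule without that library or with windows 10 kb shorter at each end. By library, a H3K27me3 peak was present in 5 and 6 windows in untreated replicates 1 and 2, against 14.1% and 23.0% of tiles, and in 5 and 7 windows in tamoxifen replicates 1 and 2, against 21.5% and 26.8%. The counts of windows with H3K27me3 stood further above the tiles than those with H3K9me3, a difference that was not tested.

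The Mael window carried the most H3K27me3, together with Slc25a31. In Mael the covered share was 9.30% and 11.5% in untreated replicates 1 and 2, and 10.6% and 11.7% with tamoxifen. Its main region, on chromosome 1 from 168181067 to 168188462, was a peak of 6425 bp in untreated replicate 1 and peaks of 5632 and 710 bp in untreated replicate 2. With tamoxifen it was a peak of 6621 bp in replicate 1 and of 7349 bp in replicate 2. Of this region, 4937 bp were common to all 4 lists. In Slc25a31 the covered share was 9.67% and 7.91% untreated and 11.8% and 9.33% with tamoxifen. One of its regions ran from 40510998 to 40514442 on chromosome 3, with 1709 bp common to the 4 lists, and another from 40545710 to 40549928, with 823 bp common. In both windows the untreated and tamoxifen values overlapped.

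Ddx4 had a single H3K27me3 domain, on chromosome 13 from 113440080 to 113445673. The covered share of the window was 5.34% and 3.32% untreated and 4.24% and 3.03% with tamoxifen, and 2345 bp were common to all 4 lists. Asz1 had H3K27me3 at the edge of its window, from 17978132 to 17984635 on chromosome 6, on the other side of the window from its H3K9me3 site in replicates 3 and 4. Stk31 had a narrow H3K27me3 site from 49344542 to 49346055, with peaks of 758 and 1444 bp untreated and of 669 and 514 bp with tamoxifen. Measured from the centre of the window towards higher coordinates, this site was centred at -34.7 kb and the first H3K9me3 region at -13.0 kb. Tex101 had H3K27me3 peaks in untreated replicate 2 and tamoxifen replicate 2 only, and Dazl in tamoxifen replicate 2 only.

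**Figure D2:**
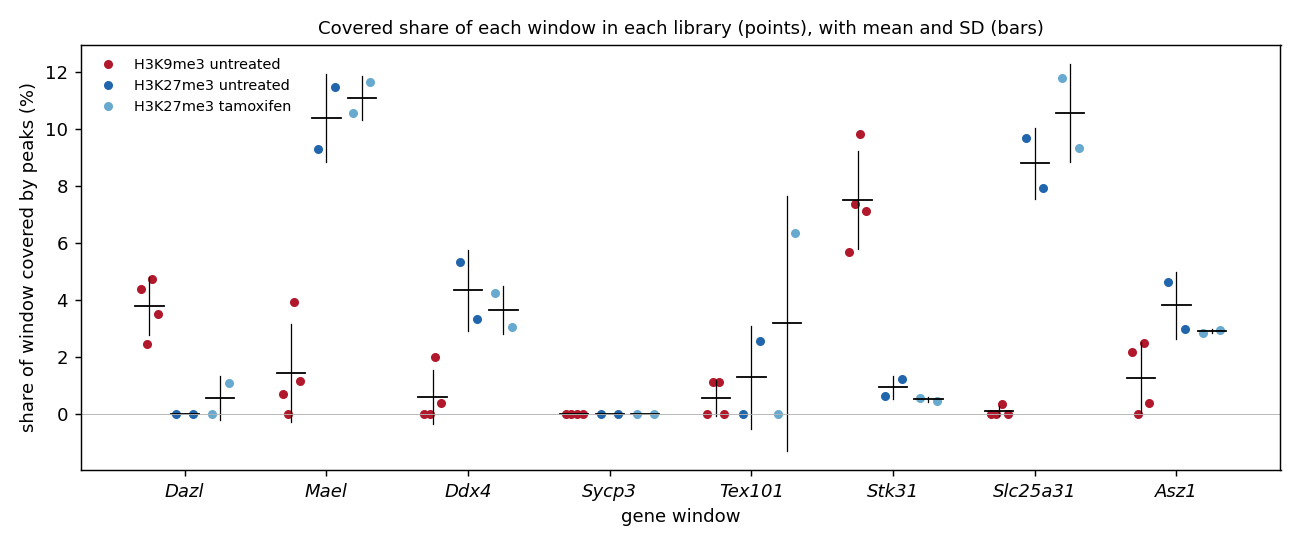
Share of each gene window covered by peaks, in percent, in each library (points: red H3K9me3 untreated, dark blue H3K27me3 untreated, light blue H3K27me3 with tamoxifen), with the group mean as a horizontal bar and the SD as a vertical bar. H3K9me3 lies above H3K27me3 in Dazl and Stk31 and below it in Mael, Ddx4, Slc25a31 and Asz1.

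The covered share of the 2 marks was compared in untreated cells. The H3K9me3 lists held 18037 to 42725 peaks and the untreated H3K27me3 lists 7041 and 17094. The part of list length in covered share was not tested. All 4 H3K9me3 libraries lay above both untreated H3K27me3 libraries in Dazl and Stk31, a relation found in 23.8% of tiles. This count, 2 of the 8 windows, lies near that background and is not a result about these genes. All 4 H3K9me3 libraries lay below both untreated H3K27me3 libraries in Mael, Ddx4, Slc25a31 and Asz1, a relation found in 10.6% of tiles. This relation requires H3K27me3 peaks in both untreated libraries. A H3K27me3 region held by both was found in 5 of the 8 windows and 12.8% of tiles. The 2 counts are therefore not independent, and this one is not a separate result. The difference of H3K9me3 minus H3K27me3 was 6.58 percentage points in Stk31 and 3.78 in Dazl. It was -8.96 in Mael, -8.71 in Slc25a31, -3.74 in Ddx4 and -2.55 in Asz1. The exact permutation test, two-sided, gave p = 0.133 for each of these 6 differences, a floor set by 4 libraries against 2, and 0.387 after Benjamini-Hochberg adjustment over all tiles and windows. None could therefore reach 0.05. Within each MACS2 version the sign of all 6 was the same as over both.

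The comparison with tamoxifen addressed whether the share of these windows covered by H3K27me3 differed once Setdb1 ablation was induced. No window had both tamoxifen libraries above both untreated ones, against 3.28% of tiles. In Stk31 and Asz1 both tamoxifen libraries lay below both untreated ones, against 2.53% of tiles. Tiles without H3K27me3 peaks in both untreated libraries could not meet this rule. A region held by both was found in 12.8% of tiles and in 5 of the 8 windows. The share among tiles with H3K27me3 was not determined, so the 2 windows are not read as an excess. In Stk31 the covered share was 0.918% ± 0.404 untreated and 0.493% ± 0.091 with tamoxifen (SD, n = 2 each), with p = 0.333 in the exact permutation test, two-sided, the floor for 2 libraries against 2. In Asz1 it was 3.81% ± 1.17 and 2.89% ± 0.074 (SD, n = 2 each), with the same exact permutation p of 0.333. The adjusted p over all tiles and windows was 1.0 for all 8 windows. In Asz1 the difference was -1.80 percentage points between the libraries of MACS2 2.0.10 and -0.033 between those of MACS2 2.1.0, and in Stk31 it was -0.074 and -0.775.

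In the other windows the groups overlapped or were empty. The difference of tamoxifen minus untreated was 1.76 percentage points in Slc25a31, 0.71 in Mael and -0.69 in Ddx4, with exact permutation p-values of 0.667 in each. In these 3 the sign was the same within both MACS2 versions, and for Mael and Ddx4 it turned when untreated replicate 1 was left out. In Slc25a31 the difference was 0.54 without tamoxifen replicate 1, 2.99 without tamoxifen replicate 2, 2.64 without untreated replicate 1 and 0.88 without untreated replicate 2. In Tex101 the covered share with tamoxifen was 0% in replicate 1 and 6.34% in replicate 2, and untreated it was 0% and 2.55%. Its H3K27me3 was thus called in the libraries of MACS2 2.1.0 alone, whatever the treatment. With 2 libraries in each group, a difference in any of these windows was not detectable by this test.

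Both marks shared bases in 5 of the 8 windows, a comparison chosen after the peaks were seen. A H3K9me3 peak of some list overlapped a H3K27me3 peak of some list in the windows of Dazl, Mael, Ddx4, Stk31 and Slc25a31, against 2.2% of tiles. Of the 37 H3K9me3 peaks in the windows 9 overlapped H3K27me3, which is 24.3%, against 1.21% of the 123915 H3K9me3 peaks of the genome. By library the counts were 0 of 5, 1 of 6, 5 of 18 and 3 of 8 in replicates 1 to 4, where 0.798%, 1.07%, 1.61% and 1.06% of all peaks overlapped. The peaks of 1 site in several lists are not independent, and they came from 5 merged sites among the 21. Of the 5 windows, 4 also met the rule for H3K27me3 in both untreated libraries, and the part of that in the count was not tested.

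**Figure D3:**
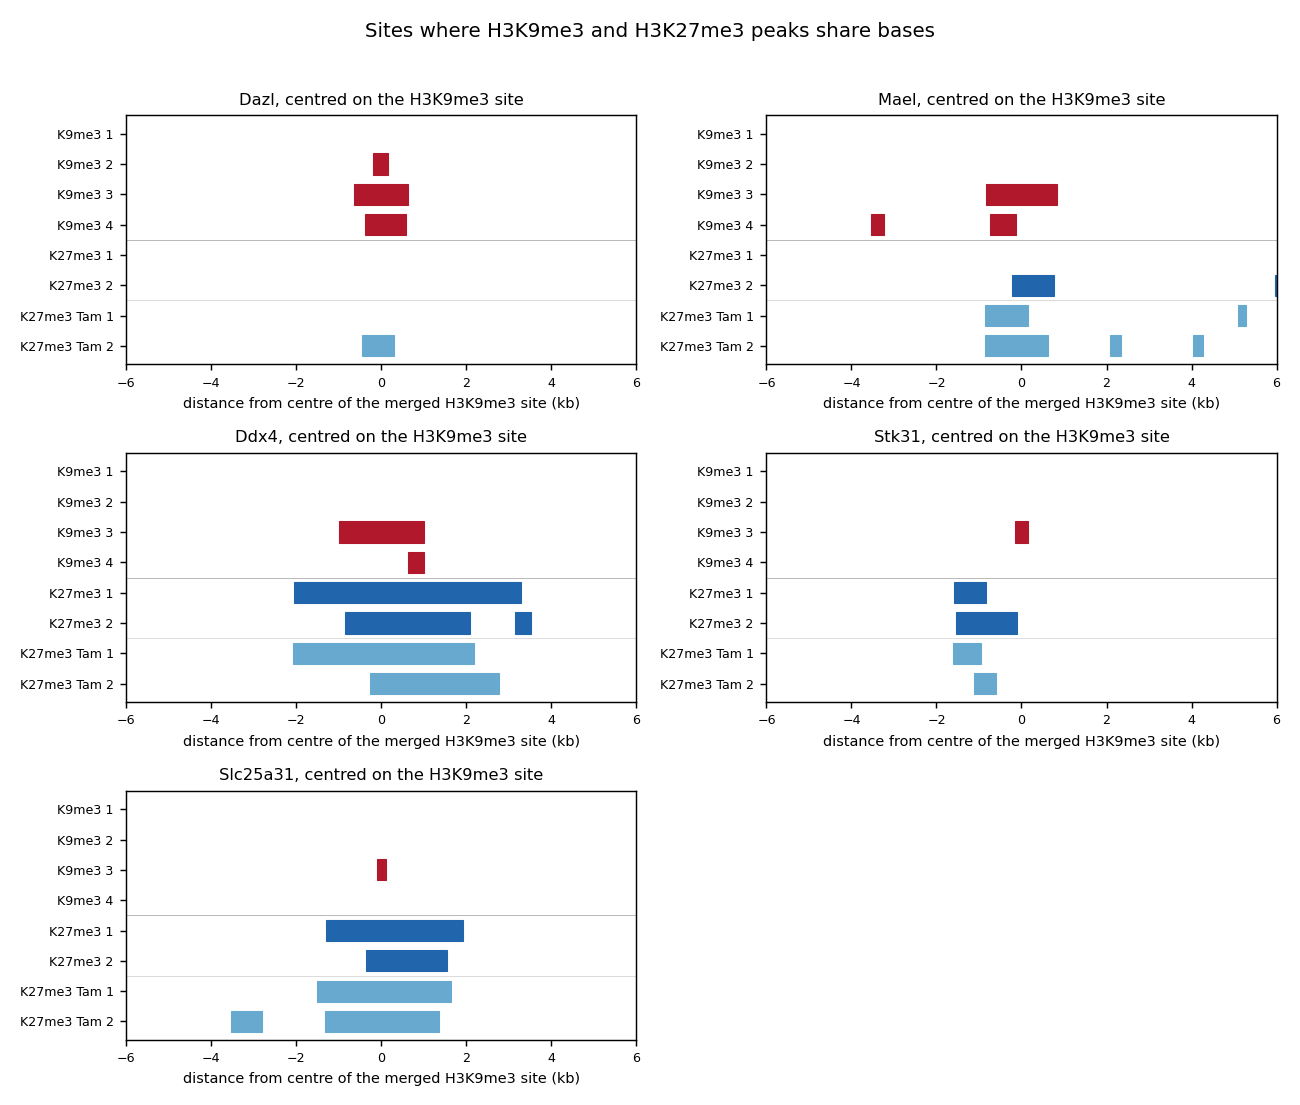
Peaks of the 8 lists around the 5 sites where H3K9me3 and H3K27me3 shared bases, by distance in kb from the centre of the merged H3K9me3 site; colours are as in the plot of all windows. In Ddx4 and Slc25a31 the H3K9me3 peaks overlap H3K27me3 peaks of all 4 lists, in Dazl and Mael both marks are narrow, and in Stk31 they meet at an edge.

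In Ddx4 the whole 2001 bp of the H3K9me3 site lay under H3K27me3 in untreated replicate 1 and tamoxifen replicate 1, 1850 bp of it in untreated replicate 2 and 1263 bp in tamoxifen replicate 2. In Mael the H3K9me3 site shared 998 bp with untreated replicate 2, and 978 and 1447 bp with tamoxifen replicates 1 and 2, and none with untreated replicate 1. In Dazl the narrow H3K9me3 site found in 3 lists shared 756 bp with the single H3K27me3 peak of the window, which belongs to tamoxifen replicate 2. That H3K27me3 peak, from 50432692 to 50433447, lay wholly inside the H3K9me3 site. The site in Slc25a31 was 207 bp wide and lay within H3K27me3 in all 4 lists, and the site in Stk31 shared 37 bp with untreated replicate 2 alone. The H3K9me3 site in both of the latter came from replicate 3 only, and without replicate 3 the count of windows was 3. The wide H3K9me3 regions of Stk31 and of the edge of the Dazl window shared no base with H3K27me3. Marks were profiled in separate libraries of many cells, so shared bases do not show both marks on the same chromatin fibre. Whether inputs also give peaks at these 5 sites was not tested.

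**Figure D4:**
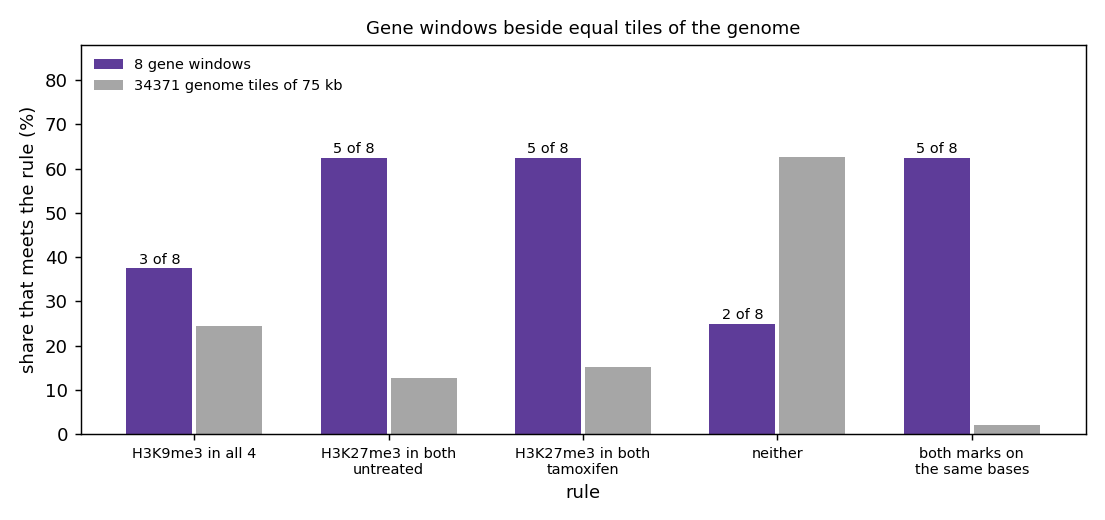
Share of the 8 gene windows (purple, with the count above each bar) and of the 34371 genome tiles of 75 kb (grey) that meet each rule, in percent. The windows stand at 3 of 8 beside 24.4% for overlap with a H3K9me3 region held by all 4 lists. They stand at 5 of 8 beside 12.8% and 15.2% for H3K27me3, and at 5 of 8 beside 2.2% for both marks on the same bases. The last rule takes H3K27me3 lists without and with tamoxifen together.

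Sycp3 and Tex101 carried neither mark, in that no region was held by all libraries of any group. These were 2 of the 8 windows, and 62.6% of tiles met the same rule. Sycp3 was the only 1 of the 8 windows with no peak in any of the lists, against 23.0% of tiles of 75 kb and 29.1% of tiles of its own width of 60 kb. The next peak of any list lay 77.6 kb before its window and 45.7 kb after it, and the next H3K9me3 region held by all 4 libraries 137.2 and 127.2 kb away. The Tex101 window was flanked more closely, by a region with H3K27me3 in all 4 lists 2.6 kb before it and a H3K9me3 region held by all 4 libraries 0.9 kb after it. With windows lengthened by 10 kb, Tex101 therefore left this class. A window with no peak may hold a mark below the level at which peaks were called.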

How the data were processed

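Chromatin immunoprecipitation and sequencing of 2 histone marks gave 8 peak lists. Bowtie 0.12.7, MACS2 2.0.10 or 2.1.0 and build mm9 are named per the submitters' processing notes. The lists deposited by the authors hold chromosome, start and end only. The caller's mode, threshold and control were not given in the sources used here. Such settings, and depth, alter the number and width of peaks. No 2 lists shared more than 1 identical peak.

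The members, gene lists and tests were chosen with earlier results of these data known. All 8 genes are named. Peaks of each window were taken from every list, regions were merged from touching or overlapping peaks, and covered share was the percent of a window's bases under peaks. Group means were compared by exact permutation (two-sided), with p-values adjusted by the Benjamini-Hochberg method over 34371 tiles of 75 kb and the windows. Positions count from 1. The functions recovered all of 30 planted regions in 400 simulated tiles. Software was SciPy 1.17.1, pandas 2.3.3, NumPy 2.4.6 and Matplotlib 3.10.9 under Python 3.11.15. Promoters came from a RefSeq table of build GRCm38.p6, whose coordinates were not compared with mm9.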

Additional observations from a re-analysis of the deposited data

Results flagged for a closer look

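In the Slc25a31 window H3K9me3 replicate 3 stood apart from the other 3 libraries, with 1 peak and 0.345% of the window covered against 0 peaks and 0% in each of the others. Among 4 values of which 3 are equal, any other value stands apart by this measure. Its nominal rate of chance flags, about 1 in 20 groups of 4, was not determined for values such as these.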

How the results depend on the processing

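The count of windows with a H3K9me3 region held by all 4 libraries was 3. It was 1 where each library had to cover at least 50% of the region and 1 with windows 10 kb shorter at each end. It was 5 with at least 2 of the 4 libraries, and 2 to 3 with 1 library left out. The count of 5 for H3K27me3 in both untreated libraries was 3 with shorter windows and 5 to 6 with 1 library left out, and for both tamoxifen libraries it was 5 to 7. The 2 windows with neither mark became 4 with shorter windows, 1 with longer ones and 1 to 2 with 1 library left out, where leaving out untreated or tamoxifen replicate 1 of H3K27me3 removed Tex101. The 5 windows with both marks on the same bases were 3 with peaks of at least 500 bp, 3 with the wider 50% of each list and 3 to 5 with 1 list left out, and H3K9me3 replicate 3 accounted for the lowest value. Windows in which tamoxifen and untreated libraries did not overlap, 2 in all, were 1 with the wider 50% of each list. They were 3 to 6 with 1 library left out, with 6 without tamoxifen replicate 1 and 4 without untreated replicate 2, 5 for MACS2 2.0.10 alone and 7 for MACS2 2.1.0 alone, where fewer libraries make separation easier by construction. With the replicate number as a block, 5 windows moved the same way in both pairs, Mael and Slc25a31 up and Ddx4, Stk31 and Asz1 down. In Dazl, Sycp3 and Tex101 the difference was 0 in at least 1 pair. The share of tiles that meet this rule was not determined, so the count is not read as an effect of tamoxifen. The number 1 is assigned and not in the labels, so the pairing is that of the MACS2 versions. The windows in which the marks did not overlap numbered 6, and 6 to 7 with 1 library left out. With 1 library left out, the difference with tamoxifen ranged from -1.27 (without tamoxifen replicate 2) to 5.07 percentage points in Tex101, from -0.38 (without untreated replicate 1) to 1.81 in Mael and from -1.7 to 0.32 (without untreated replicate 1) in Ddx4. It kept its sign in Slc25a31 (0.54 to 2.99), in Asz1 (-1.74 without untreated replicate 2 to -0.08 without untreated replicate 1) and in Stk31 (-0.71 without untreated replicate 1 to -0.14 without untreated replicate 2). The difference between marks in Tex101 ranged from -2.0 to 0.55 (without untreated H3K27me3 replicate 2). Tiles of 50 and 120 kb gave 18.2% and 33.9% for a H3K9me3 region held by all 4 libraries. They gave 9.31% and 18.6% for H3K27me3 in both untreated libraries and 71.5% and 49.7% for neither mark. The cause was not tested. Depth is unknown and limits what an absent peak shows.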
